A study of Mus musculus with 11 samples.

Results

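Transcripts of 10 genes of the Notch pathway were measured by RNA-seq in 11 libraries of mouse mammary cells. The genes were taken by name: the receptors *Notch1*, *Notch2*, *Notch3* and *Notch4*, the ligands *Jag1*, *Jag2* and *Dll1*, and the target genes *Hes1*, *Hey1* and *Heyl*. These are 10 of the 27179 genes counted, and all 10 exceeded 0.5 CPM (counts scaled to library size) in at least 3 libraries, which was required for testing. MaSC/basal cells (CD24+CD29hi, enriched for mammary stem cells and also holding myoepithelial cells), luminal progenitor-enriched LP cells (CD24+CD29loCD61+) and mature luminal-enriched ML cells (CD24+CD29loCD61-) had 3 libraries each. They were sorted, after depletion of blood and endothelial cells, from wild type FVB/N virgin females that the labels give as 8 weeks old, and the labels give these groups no treatment and no altered gene. MaSC/basal cells grown for 7 days as non-adherent mammospheres, and Comma Dβ, an established line of Balb/c mammary epithelial cells from mid-pregnancy gland, labelled CommaD-βGeo, had 1 library each. In such bulk libraries, fewer cells of a type and less RNA per cell cannot be told apart. The comparison asked which of the sorted populations hold the ligand transcripts and which hold the receptor and target transcripts.

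Notch receptors are single-pass membrane proteins that are activated by ligands on a neighbouring cell. Ligand binding is followed by ADAM and γ-secretase cleavage of the receptor, and the freed intracellular domain enters the nucleus, where with RBPJ and a Mastermind protein it switches on genes of the HES and HEY families of transcriptional repressors. In the mammary gland the pathway is known for its part in luminal cell fate.

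Library totals ran from 19958838 to 75795034 assigned reads, so that 0.5 CPM was 9.37 reads in the shallowest library. The labels place MaSC/basal replicate 1, LP and ML replicates 1 and the mammospheres in batch 1, MaSC/basal replicates 2 and 3 and LP and ML replicates 2 in batch 2, and LP and ML replicates 3 and Comma Dβ in batch 3. MaSC/basal cells were therefore absent from batch 3. MaSC/basal replicate 1 was submitted under a name with p53 in it, while its genotype label reads wild type, and the name of the mammosphere library may join more than 1 culture. The 6 basal markers, among them *Krt5*, *Krt14* and *Trp63*, summed to 16026 to 22302 CPM in MaSC/basal libraries and to 57.4 to 363 CPM in the luminal libraries. ML replicate 3 had the highest luminal sum of basal markers (*Krt5* at 141 CPM), and ML replicate 2 the highest ML sum of LP markers (687 CPM, against 295 and 377 in the other ML libraries and 1223 to 1612 in LP). The 8 markers of endothelial cells, which the sort was meant to remove, summed to 60.3 to 121 CPM in MaSC/basal and to 9.44 to 48.9 CPM in luminal libraries, with no marker at 0 in any sorted library.

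All 3 ligands were higher in MaSC/basal cells than in both luminal populations, whereas *Notch1*, *Notch2*, *Notch3*, *Hes1* and *Heyl* were lower. *Notch4* was the receptor with the opposite direction, and *Hey1* was lower in MaSC/basal than in LP cells with no call against ML. Against the mean of LP and ML, 10 of 10 genes passed edgeR's quasi-likelihood test at FDR under 0.05, 4 higher and 6 lower in MaSC/basal, where 61.7% of all 15422 genes tested also passed (31.2% higher and 30.5% lower). Against LP alone 10 of 10 passed (57.4% of all genes), 4 higher (29.4%) and 6 lower (28.0%), and against ML alone 9 of 10 (58.7%), 4 higher (28.9%) and 5 lower (29.7%). The last 2 comparisons share the MaSC/basal libraries. Libraries of the groups did not overlap for 10 of 10 genes against LP (63.9% of all genes), 9 of 10 against ML (65.5%) and 9 of 10 against all luminal libraries (49.0%). The number of calls therefore did not set these genes apart by itself, and the sizes and directions are given gene by gene.

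**Figure D1:**
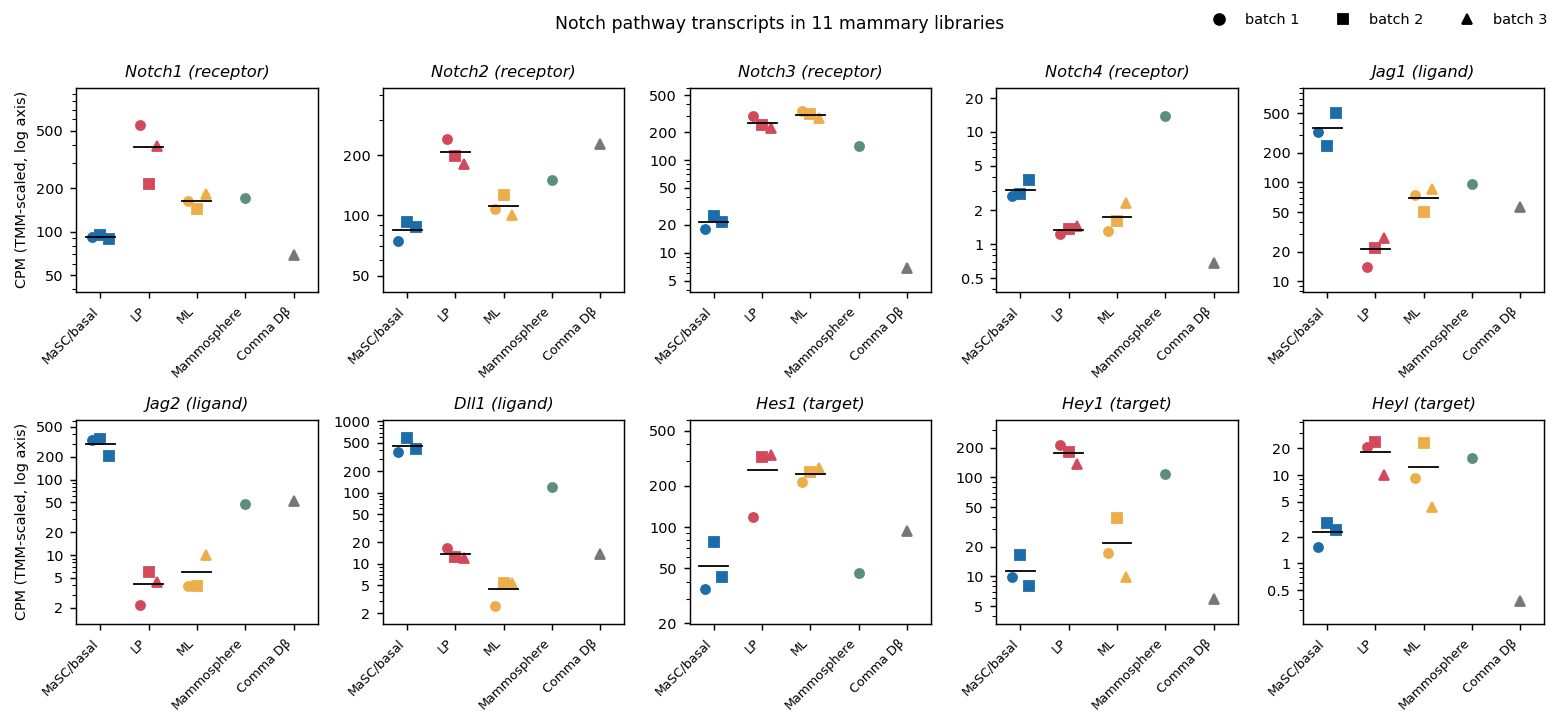
TMM-scaled CPM (log axis) of the 10 genes in each of the 11 libraries, by sample type, with symbols for batch and a black line at the mean of the 3 libraries. *Jag1*, *Jag2* and *Dll1* are highest in MaSC/basal cells and *Notch3*, *Hes1* and *Heyl* are lowest there among sorted cells, with each MaSC/basal library beyond all 6 luminal libraries.

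The Jagged and Delta ligands are transmembrane proteins of the signal-sending cell. *Jag1* (chr2:137081451-137116520, build GRCm38, as are all positions here) measured 324, 232 and 501 CPM in MaSC/basal replicates 1, 2 and 3, 14.1, 21.8 and 27.3 CPM in LP, and 75.1, 49.9 and 85.0 CPM in ML. The populations did not overlap and ML cells lay between the others. *Jag1* was higher in MaSC/basal than in LP cells by 4.07 on the log2 scale (SE 0.36, 16.7-fold, FDR 7.97e-06) and than in ML cells by 2.33 (SE 0.33, 5.04-fold, FDR 1.80e-04). MaSC/basal replicate 3 held the highest *Jag1* value and the highest endothelial sum, and the part of endothelial RNA in the difference was not tested. Without that library the log2 difference from luminal cells was 2.87 in place of 3.20.

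*Jag2* (chr12:112907803-112929812) showed a larger contrast. It measured 336, 344 and 205 CPM in MaSC/basal, 2.22, 5.93 and 4.38 CPM in LP and 3.90, 3.88 and 9.93 CPM in ML libraries. Every luminal library was below 10 CPM and every MaSC/basal library above 200 CPM. The log2 difference was 6.12 from LP (SE 0.51, 69.7-fold, FDR 5.21e-06) and 5.68 from ML (SE 0.50, 51.3-fold, FDR 6.37e-06).

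*Dll1* (chr17:15367354-15376932) was the most abundant ligand in MaSC/basal cells on the per-length scale, at 134 ± 32.6 RPKM (SD, n = 3), and measured 378, 586 and 412 CPM there. In LP it measured 16.7, 12.5 and 11.9 CPM and in ML 2.57, 5.30 and 5.33 CPM. The 3 populations were separated, in the order MaSC/basal, LP, ML. The log2 difference was 5.07 from LP (SE 0.32, 33.5-fold, FDR 9.96e-07) and 6.70 from ML (SE 0.35, 104-fold, FDR 3.13e-07). *Dll1* shares 20.5% of its exon bases with the opposite-strand gene *A930024N18Rik*, and the library kit did not mark strand, so that reads from the shared part cannot be told apart.

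The receptors divided into 3 with luminal excess and 1 without. *Notch1* (chr2:26457902-26503822) measured 91.8, 95.1 and 89.5 CPM in MaSC/basal, 552, 215 and 390 CPM in LP and 164, 143 and 183 CPM in ML libraries. MaSC/basal replicates lay within a narrow range, LP replicates spread widely, and no library of one population overlapped another. *Notch1* fell by 2.07 on the log2 scale from LP to MaSC/basal (SE 0.29, FDR 1.58e-04) and by 0.82 from ML (SE 0.28, FDR 0.0263). The difference from ML missed the threshold with library batch as a block (-0.66, FDR 0.0588) and after the loss of any MaSC/basal library or of ML replicate 1 or 3 (FDR 0.0531 to 0.0722).

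*Notch2* (chr3:98013538-98150367) measured 74.8, 92.3 and 87.8 CPM in MaSC/basal, 241, 199 and 180 CPM in LP and 108, 126 and 101 CPM in ML. The order was LP, ML, MaSC/basal without overlap. It was lower in MaSC/basal than in LP by a log2 difference of -1.28 (SE 0.15, FDR 6.16e-05) and than in ML by -0.39 (SE 0.15, FDR 0.0466). The latter did not hold with DESeq2 size factors (FDR 0.0546) or without a filter on low counts (FDR 0.0551), nor in 7 of the 9 fits without 1 sorted library (MaSC/basal replicate 1, 2 or 3, LP replicate 2 or 3, or ML replicate 1 or 2, FDR 0.0524 to 0.171).

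*Notch3* (chr17:32120820-32166896) separated the lineages most among the receptors. It measured 18.2, 24.8 and 21.4 CPM in MaSC/basal against 302, 241 and 219 CPM in LP and 335, 313 and 281 CPM in ML. LP and ML overlapped, and both were an order of magnitude above MaSC/basal. The log2 differences were -3.57 (SE 0.18, FDR 3.61e-07) from LP and -3.85 (SE 0.18, FDR 2.23e-07) from ML, 11.8-fold and 14.4-fold.

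*Notch4* (chr17:34564286-34588543), a receptor best known from endothelium, was scarce and went the other way. It measured 2.66, 2.81 and 3.73 CPM in MaSC/basal (157, 141 and 198 reads), 1.23, 1.37 and 1.44 CPM in LP and 1.30, 1.61 and 2.32 CPM in ML. All MaSC/basal values exceeded all luminal values, while LP and ML overlapped. The log2 difference was 1.19 from LP (SE 0.27, FDR 0.00397) and 0.83 from ML (SE 0.27, FDR 0.0218). The endothelial markers moved with it: 7 of 8 were also higher in MaSC/basal than in luminal cells, and MaSC/basal replicate 3 had the highest *Notch4* value as well as the highest endothelial sum. The 6 pericyte markers moved with it as well, 5 of 6 being higher in MaSC/basal, with sums of 37.3 to 54.3 CPM there and 4.09 to 16.2 CPM in luminal libraries. The part of either list in the difference was not tested. Without MaSC/basal replicate 3 *Notch4* was higher than in luminal cells by 0.86 (FDR 0.0128) but no longer passed against ML (0.68, FDR 0.0617), nor did it without ML replicate 1 or 2 (FDR 0.0822 and 0.0670).

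**Figure D2:**
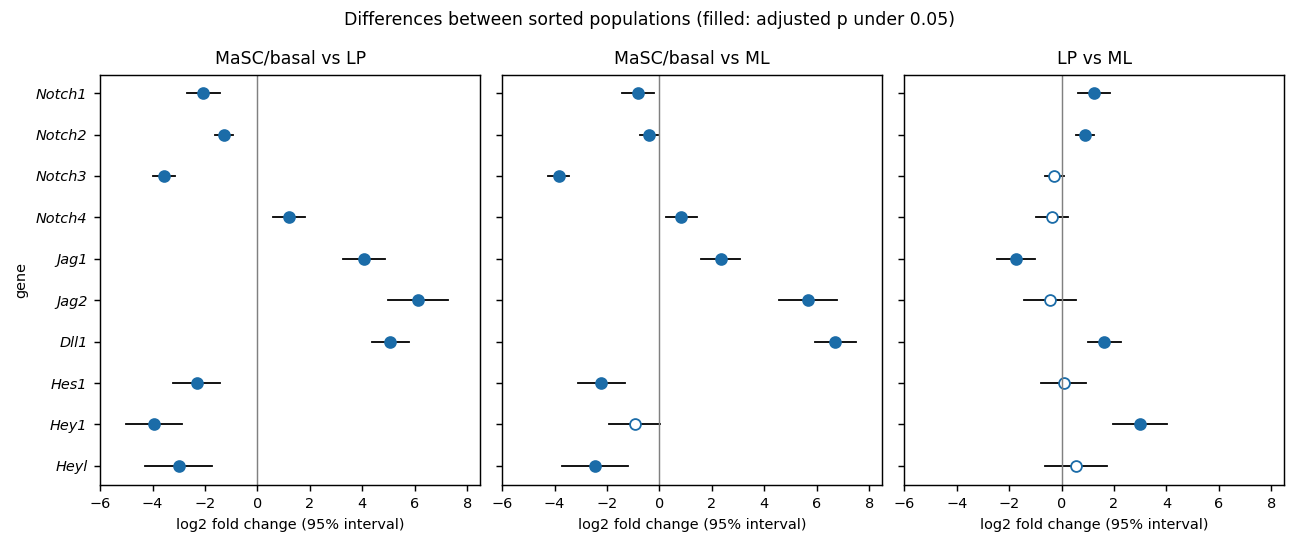
Log2 fold changes of the 10 genes between sorted populations from edgeR's quasi-likelihood fit, with 95% intervals. Positive values are higher in the population named first and filled points have FDR under 0.05. Ligands lie to the right and *Notch3*, *Hes1* and *Heyl* to the left in both comparisons with MaSC/basal cells, while LP and ML cells differ in 5 genes, led by *Hey1* at 3.00.

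The 250 bases before an annotated RefSeq start were read for 7 of the 10 genes, the receptors and ligands (RefSeq windows on GRCm38.p6). The targets *Hes1*, *Hey1* and *Heyl* had no window and were not read. The *Jag2* window (chr12:112929496-112929745) and 1 of the 2 *Dll1* windows (chr17:15375824-15376073) lie wholly inside the RefSeq gene, not upstream of it, and inside an annotated exon. The second *Dll1* window (chr17:15376933-15377182) lies outside the RefSeq gene, but all 250 of its bases are also in an annotated exon. Exons of any gene were counted for this. Both strands were searched for GGGCGG (the GC box), GTGGGAA (the core of RBPJ sites), CAGGTG (an E-box bound by Snail and Zeb proteins), CACGTG (an E-box bound by HES and HEY proteins) and TATAAA (the TATA box), which occurred in 32.7%, 5.42%, 17.2%, 6.02% and 12.4% of 32851 windows of the same length. The 3 receptors with luminal excess held 5 (*Notch1*), 5 (*Notch2*) and 4 (*Notch3*) GC boxes, *Jag2* held 5, and *Notch4*, *Jag1* and *Dll1* held none. Of the other motifs, the 7 genes held only a CAGGTG at position -155 of the second *Dll1* window. *Notch4* had 4 CpG dinucleotides in its window, against 16, 34 and 17 for *Notch1*, *Notch2* and *Notch3* and a median of 6 over all windows. The exon-free parts of *Notch3* (chr17:32166897-32167140, minus strand) and *Notch4* (chr17:34564045-34564267, plus strand) are shown because these receptors went in opposite directions, and that of *Jag1* (chr2:137116645-137116770, minus strand) because it is a CpG-rich ligand start (20 CpG in its window) without any of the 5 motifs. Each reads 5′ to 3′ in the direction of the gene, and capitals mark GC boxes on either strand.
Notch3: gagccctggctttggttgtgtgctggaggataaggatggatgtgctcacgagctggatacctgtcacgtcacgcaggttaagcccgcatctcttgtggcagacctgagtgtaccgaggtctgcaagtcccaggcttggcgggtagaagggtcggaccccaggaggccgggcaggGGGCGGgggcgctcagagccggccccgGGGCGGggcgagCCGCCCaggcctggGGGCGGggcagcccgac
Notch4: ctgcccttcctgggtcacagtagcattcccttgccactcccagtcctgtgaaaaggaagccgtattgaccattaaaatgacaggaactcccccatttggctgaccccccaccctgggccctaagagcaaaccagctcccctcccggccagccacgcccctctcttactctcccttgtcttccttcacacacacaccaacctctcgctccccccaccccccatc
Jag1: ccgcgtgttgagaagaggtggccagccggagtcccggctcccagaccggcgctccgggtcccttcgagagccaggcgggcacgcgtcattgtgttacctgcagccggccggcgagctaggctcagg
A match is a description of letters and was not tested as a binding site.

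Summed per length, ligand and receptor transcripts were distributed in opposite ways. *Jag1*, *Jag2* and *Dll1* together reached 271 ± 24.3 RPKM in MaSC/basal, 8.86 ± 0.789 RPKM in LP and 15.5 ± 3.94 RPKM in ML cells (SD, n = 3 each). The 4 receptors together reached 21.0 ± 1.44, 92.5 ± 24.2 and 67.1 ± 2.63 RPKM. The ligand sum was thus 12.9 ± 0.442 times the receptor sum in MaSC/basal, 0.101 ± 0.0305 times in LP and 0.232 ± 0.0645 times in ML cells, and libraries of the 3 populations did not overlap in this ratio. These sums are descriptions without a test.

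The make-up of each sum also differed by population. *Notch1* gave 46.4% ± 2.77 and *Notch2* 38.5% ± 1.74 of receptor RPKM in MaSC/basal cells (SD, n = 3). *Notch3* gave 12.8% ± 1.08 there, 35.3% ± 5.83 in LP and 58.0% ± 2.91 in ML, where it was the leading receptor in every library. Among ligands, *Dll1* gave 49.0% ± 7.34 in MaSC/basal and 45.8% ± 13.2 in LP cells, whereas *Jag1* gave 82.2% ± 5.76 of the small ligand sum in ML cells. In LP cells *Jag1* gave 42.7% ± 10.0. It exceeded *Dll1* in LP replicates 2 (43.8% against 40.1%) and 3 (52.2% against 36.5%) but not in replicate 1 (32.2% against 60.9%). *Jag2* contributed 26.9% ± 6.94 in MaSC/basal and 9.03% ± 3.23 in ML.

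**Figure D3:**
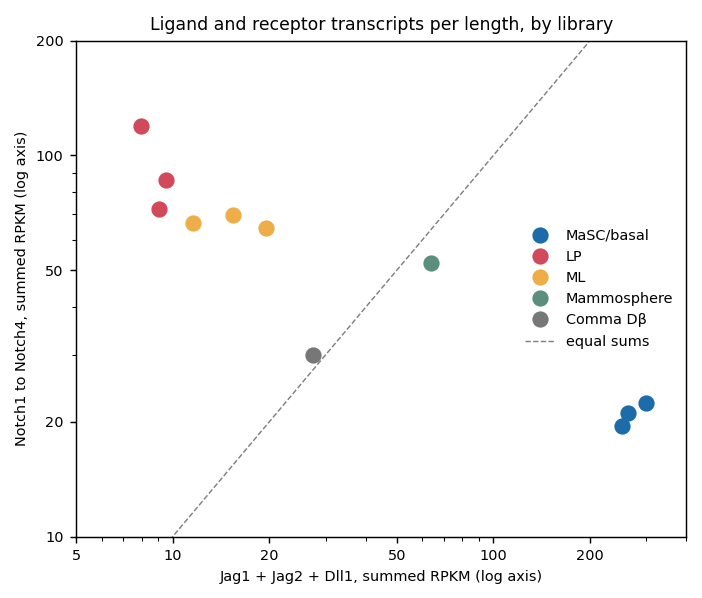
Summed RPKM of *Jag1*, *Jag2* and *Dll1* (x, log axis) against summed RPKM of *Notch1* to *Notch4* (y, log axis), 1 point per library, with a dashed line of equal sums. MaSC/basal libraries lie at 252 to 298 RPKM of ligands and 19.5 to 22.4 RPKM of receptors, luminal libraries at 7.98 to 19.5 and 64.7 to 119 RPKM, and the cultured libraries near the line.

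The target genes encode basic helix-loop-helix repressors. *Hes1* (chr16:30065357-30067796) measured 35.5, 77.2 and 43.2 CPM in MaSC/basal, 117, 325 and 335 CPM in LP and 212, 253 and 267 CPM in ML libraries. All luminal values exceeded all MaSC/basal values, and LP and ML overlapped, LP replicate 1 being the lowest luminal library. *Hes1* fell in MaSC/basal cells by 2.32 on the log2 scale relative to LP (SE 0.40, FDR 7.18e-04) and by 2.23 relative to ML (SE 0.40, FDR 8.34e-04).

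*Hey1* (chr3:8663359-8667038) was instead a gene of LP cells. It measured 9.95, 16.3 and 8.10 CPM in MaSC/basal, 212, 181 and 135 CPM in LP and 17.2, 38.6 and 9.83 CPM in ML. LP libraries were far above the others, and ML replicate 3 was within the MaSC/basal range. The log2 difference of MaSC/basal from LP was -3.94 (SE 0.49, 15.4-fold, FDR 7.36e-05). From ML it was -0.95 (SE 0.44, 95% interval -1.93 to 0.04, FDR 0.0889), which passed with library batch as a block (-1.17, FDR 0.0207) and without ML replicate 3 (-1.30, FDR 0.0148), the ML library with the most basal marker RNA. Without ML replicate 2, the ML library with the most LP marker RNA, it was -0.25 (FDR 0.545).

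*Heyl* (chr4:123233556-123249870) was low throughout. It measured 1.54, 2.89 and 2.37 CPM in MaSC/basal, 21.0, 23.4 and 10.1 CPM in LP and 9.27, 23.0 and 4.37 CPM in ML. The luminal populations overlapped each other but not MaSC/basal cells. *Heyl* was lower in MaSC/basal than in LP by a log2 difference of -3.01 (SE 0.58, FDR 0.00131) and than in ML by -2.45 (SE 0.56, FDR 0.00378). The difference from ML was -1.60 (FDR 0.0104) without ML replicate 2, the ML library with the highest *Heyl* value and the most LP marker RNA.

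In an exact permutation test of each gene over the 9 sorted libraries (MaSC/basal against luminal, two-sided, log2 of CPM plus 0.5), p was 0.0119, the smallest that 84 assignments allow, for *Notch3*, *Notch4*, *Jag1*, *Jag2*, *Dll1*, *Hes1* and *Heyl*. It was 0.0238 for *Notch2*, 0.0357 for *Notch1* and 0.0714 for *Hey1* by the same exact test. With 1 CPM added in place of 0.5 the exact p of *Heyl* was 0.0238, and with 0.1 CPM it stayed at 0.0119. Every other member kept its value.

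LP and ML cells differed in 5 of the 10 genes at FDR under 0.05, where 31.8% of all genes tested passed, and in the same 5 the libraries did not overlap (47.9% of all genes). Of the 5, 4 were higher in LP (14.3% of all genes) and 1 lower (17.5%). *Notch1* was higher in LP by 1.24 (SE 0.28, FDR 0.00880), *Notch2* by 0.89 (SE 0.15, FDR 0.00275), *Dll1* by 1.64 (SE 0.29, FDR 0.00301) and *Hey1* by 3.00 (SE 0.47, 7.98-fold, FDR 0.00174), all on the log2 scale. Without ML replicate 2 the *Hey1* difference was 3.69. *Jag1* was the gene with the opposite sign, at -1.73 (SE 0.33, FDR 0.00431). The 2 ligands *Dll1* and *Jag1* thus changed in opposite directions between the luminal populations.

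These 5 differences had the same sign in each of the 3 batches that held an LP and an ML library. The log2 ratio of LP to ML for *Hey1* was 3.58, 2.22 and 3.72 in batches 1, 2 and 3, and for *Jag1* -2.37, -1.18 and -1.62. For *Notch1* it was 1.75, 0.59 and 1.09, for *Notch2* 1.15, 0.66 and 0.84, and for *Dll1* 2.48, 1.16 and 1.09. Batch 2, whose ML library carried the most LP marker RNA, had the ratio smallest in size for *Notch1*, *Notch2*, *Jag1* and *Hey1*. For *Notch1* its LP library (215 CPM) was the lowest of LP and its ML library (143 CPM) the lowest of ML. The LP library of batch 2 had the highest fibroblast marker sum of the sorted libraries (1120 CPM, against 230 and 585 in the other LP libraries). It also had the highest basal marker sum of LP (210 CPM, against 57.4 and 118). The part of LP cells in the ML library of batch 2, or of other cells in its LP library, was not tested.

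*Notch3* (-0.28, 95% interval -0.65 to 0.08), *Notch4* (-0.36, -0.98 to 0.26), *Jag2* (-0.44, -1.42 to 0.53), *Hes1* (0.09, -0.77 to 0.94) and *Heyl* (0.56, -0.61 to 1.74) were not called between LP and ML, and their libraries overlapped. *Heyl* passed with library batch as a block (0.78, FDR 0.0403) and without ML replicate 2 (1.40, FDR 0.0400). *Notch3* passed without TMM scaling (-0.46, FDR 0.0338). That setting moved the median of all genes by -0.17 in this comparison and by 0.15 between MaSC/basal and LP, and lowered the share of called genes that were higher in LP from 45% to 29.4%.

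**Figure D4:**
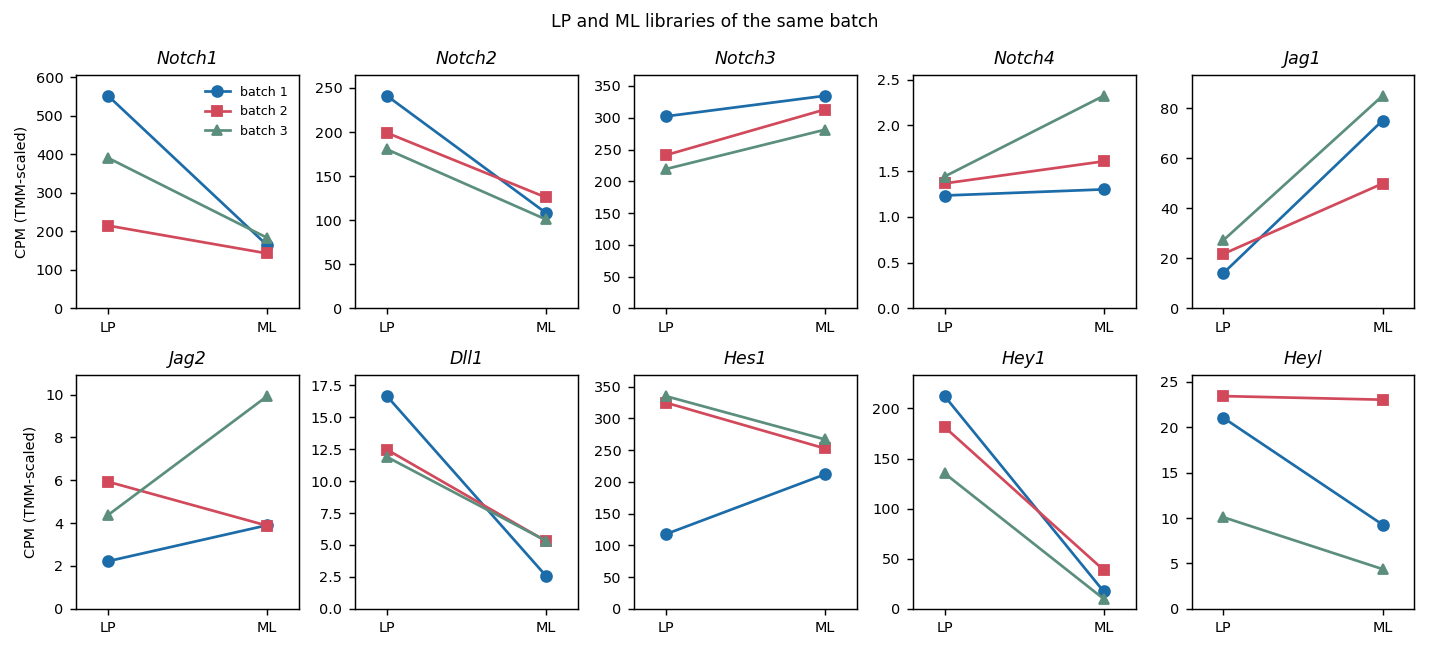
TMM-scaled CPM of the 10 genes in the LP and ML library of each batch, joined by a line per batch, with the y axis from 0. Lines of *Notch1*, *Notch2*, *Dll1* and *Hey1* fall and those of *Jag1* rise in all 3 batches, whereas those of *Jag2* and *Hes1* rise in some batches and fall in others.

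Of 55 further pathway genes listed by role, 49 were tested and 28 passed between MaSC/basal and luminal cells (13 higher, 15 lower, where 61.7% of all genes passed), with a median log2 difference of -0.09 against -0.01 over all genes. Between MaSC/basal and LP 26 passed (57.4% of all genes), between MaSC/basal and ML 29 (58.7%), and between LP and ML 17 (31.8%), or 11 and 10 without ML replicate 1 or 3. Of the 5 enzymes that glycosylate the receptors 4 were higher in MaSC/basal than in luminal cells and none lower (median log2 difference 1.43), where 31.2% of all genes were higher. Of the 10 receptor proteases and their subunits 7 were lower and none higher (median -0.59), where 30.5% of all genes were lower.

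Among the other ligands, *Dlk2* and *Dlk1*, non-canonical ligands without the DSL domain of Delta proteins, followed *Jag2* and *Dll1*. *Dlk2* measured 30.2, 27.0 and 20.1 CPM in MaSC/basal libraries and at most 0.455 CPM in luminal libraries, a log2 difference of 6.78 (SE 0.35, FDR 1.67e-07). *Dlk1* reached 2.46 ± 0.491 CPM in MaSC/basal against 0.115 ± 0.108 in LP and 0.112 ± 0.0751 in ML (SD, n = 3 each), and also passed (FDR 3.01e-05). *Dll4*, a ligand best known from endothelium, had no call between MaSC/basal and the mean of LP and ML (-0.27, FDR 0.331). Against LP alone it was called lower, at 2.88 ± 0.181 CPM in MaSC/basal and 4.74 ± 1.07 CPM in LP (SD, n = 3 each). It was higher in LP than in ML (0.91, SE 0.26, FDR 0.0247). *Dll3* did not exceed 0.226 CPM in any library.

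Of the enzymes acting on ligands or receptors, the Fringe glycosyltransferases, which alter the ligand preference of Notch, were higher in MaSC/basal than in luminal cells: *Mfng* by 3.16 (SE 0.38, FDR 4.43e-05), *Lfng* by 1.53 (SE 0.33, FDR 0.00239) and *Rfng* by 0.71 (SE 0.14, FDR 0.00153) on the log2 scale. *Mfng* was scarce, at 1.75 ± 0.165 CPM in MaSC/basal (SD, n = 3) and at most 0.320 CPM in luminal libraries. *Lfng* and *Rfng* averaged 22.4 and 33.2 CPM in MaSC/basal. *Lfng* had no call against ML alone (0.54, FDR 0.259), and was lower in LP than in ML (-1.98, SE 0.42, FDR 0.00663). *Poglut1*, an O-glucosyltransferase of Notch, was higher in MaSC/basal by 1.43 (SE 0.11, FDR 2.36e-06). *Adam10*, the metalloprotease of the first ligand-dependent cleavage, measured 580 ± 78.9 CPM in ML, 188 ± 50.7 in LP and 113 ± 11.8 in MaSC/basal (SD, n = 3 each), and differed between LP and ML by -1.63 (SE 0.21, FDR 9.98e-04). Of the γ-secretase genes, *Psen2* (-1.50, FDR 6.47e-06), *Aph1a* (-0.75, FDR 0.00352) and *Aph1c* (-0.58, FDR 0.0295) were lower in MaSC/basal than in luminal cells. *Aph1c* averaged 5.70 ± 0.605 CPM in MaSC/basal cells, while LP stood at 5.18 ± 1.03 CPM and ML had 14.2 ± 3.33 CPM (SD, n = 3 each). It was called against ML (-1.31, FDR 7.47e-04) but not against LP (0.14, FDR 0.627). *Mib1*, a ubiquitin ligase needed for ligand endocytosis, was higher in MaSC/basal by 0.59 (SE 0.15, FDR 0.00748), although neither it nor *Rfng* was called against LP alone (0.33, FDR 0.147, and 0.40, FDR 0.0643). *Neurl1a*, another such ligase, was lower in LP than in ML by -2.13 (SE 0.29, FDR 0.00112), at 0.686 ± 0.179 and 3.07 ± 0.629 CPM (SD, n = 3 each).

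In the nucleus, *Rbpj*, which encodes the DNA-binding partner of Notch, was higher in MaSC/basal than in luminal cells by 0.83 (SE 0.14, FDR 5.72e-04), opposite to *Hes1*, *Hey1* and *Heyl*. *Snw1* was lower by a difference of -0.32 (FDR 0.0168). The coactivators *Maml2* and *Maml3* changed between LP and ML in opposite directions, at 1.37 (FDR 0.00689) and -0.88 (FDR 0.00308). Of the corepressors, *Tle1* (1.56, FDR 4.17e-05), *Tle4* (0.80, FDR 0.00675) and *Ctbp1* (0.46, FDR 0.00514) were higher and *Tle2* (-0.62, FDR 0.00323) lower in MaSC/basal cells. *Snw1* and *Tle4* had no call against LP alone (-0.26, FDR 0.0745, and 0.37, FDR 0.218). Among negative regulators, *Numbl*, a relative of the Notch inhibitor Numb, was higher in MaSC/basal by 2.39 (SE 0.20, FDR 3.20e-06). *Numb* itself was lower than in luminal cells by a difference of -0.83 (SE 0.13, FDR 3.05e-04). *Nrarp*, a feedback inhibitor that Notch itself induces, was lower by a difference of -1.25 (SE 0.29, FDR 0.00340) and *Dtx4* by -2.53 (SE 0.30, FDR 4.19e-05). Of the 9 listed negative regulators, *Numbl* alone was called higher (31.2% of all genes) and 4 were called lower (30.5%). *Dtx1* was higher in LP than in ML by 1.45 (SE 0.50, FDR 0.0499).

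Of 7 further HES and HEY genes, *Hey2* and *Hes6* were tested. *Hey2* resembled *Hey1* in the sorted cells: it measured 0.882, 1.31 and 0.508 CPM in MaSC/basal, 19.4, 7.03 and 15.4 CPM in LP and 1.72, 2.02 and 2.23 CPM in ML. LP libraries were above all others. It was higher in LP than in ML by 2.81 (SE 0.43, FDR 0.00158) and lower in MaSC/basal than in luminal cells by a difference of -2.54 (SE 0.40, FDR 3.06e-04). *Hes6* was lower in MaSC/basal than in luminal cells (-1.15, SE 0.16, FDR 1.63e-04), and *Hes5* did not exceed 0.526 CPM in any library. None of the windows read for the receptors and ligands held the RBPJ core, and no window was read for *Hes1*, *Hey1* or *Heyl*. The *Hey2* window held 1, at position -207 from the start, and is shown for this reason (chr10:30842802-30843033, minus strand, capitals as above and also for the RBPJ core, here as its reverse complement, and for CAGGTG at position -223).
Hey2: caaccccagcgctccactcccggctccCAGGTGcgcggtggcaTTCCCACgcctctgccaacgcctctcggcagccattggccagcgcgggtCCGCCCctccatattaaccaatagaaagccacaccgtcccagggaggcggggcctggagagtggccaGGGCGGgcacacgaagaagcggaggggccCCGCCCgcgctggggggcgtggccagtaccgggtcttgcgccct

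In mammospheres, which were grown from MaSC/basal cells, all 3 ligands were below and *Notch1*, *Notch2*, *Notch3*, *Notch4*, *Hey1* and *Heyl* above every MaSC/basal library. With 1 library this difference has no replicate check. Relative to the MaSC/basal mean, 7 of 10 genes differed by over 2-fold, as did 39.7% of all genes tested, 4 upward (19.7%) and 3 downward (20.0%). Without TMM scaling *Notch1* (1.12) and *Notch2* (1.05) passed as well, giving 9 of 10, 6 upward. Marker lists also differed from those of sorted MaSC/basal libraries: basal markers summed to 3408 CPM against 16026 to 22302 (*Acta2*, of smooth muscle and myoepithelium, at 131 CPM), luminal markers to 2446 against 817 to 998, LP markers to 423 against 89.4 to 96.4 (*Elf5* at 149 and *Kit* at 85.6 CPM) and fibroblast markers to 1723 against 481 to 707. Within the fibroblast list *Dcn*, at 98.5 CPM, was below every MaSC/basal library, while *Pdgfra*, *Lum*, *Col1a1* and *Col3a1* were above. The part of these cell types in the mammosphere differences was not tested. *Jag1*, *Jag2* and *Dll1* measured 95.4, 47.2 and 120 CPM, log2 ratios of -1.81, -2.60 and -1.91, and all remained above every LP and ML library. *Notch3* reached 140 CPM (log2 ratio 2.72), *Hey1* 108 CPM (3.30) and *Heyl* 15.5 CPM (2.79). *Hey2* did not follow *Hey1*, at 1.37 CPM (log2 ratio 0.68) and below every luminal library. *Hes1* stayed at 46.2 CPM, within the MaSC/basal range, while *Nrarp* at 39.3 CPM exceeded all sorted libraries.

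*Notch4* at 13.7 CPM (608 reads) was above all 9 sorted libraries, of which the highest had 3.73 CPM. The endothelial markers did not accompany it, since their sum was 15.6 CPM in mammospheres, below every MaSC/basal library. The 6 pericyte markers summed to 239 CPM against 37.3 to 54.3 CPM in MaSC/basal, chiefly through *Pdgfrb* at 151 and *Cspg4* at 54.3 CPM, whereas *Rgs5* was at 1.13 CPM, and their part was not tested. The ligand sum was 1.23 times the receptor sum in this library.

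In Comma Dβ cells *Notch1* (69.0 CPM), *Notch3* (6.84), *Notch4* (0.680), *Hey1* (5.99) and *Heyl* (0.374 CPM, 11 reads) were below all sorted libraries. For *Notch1* the distance was small, with a log2 ratio of -0.42 to the MaSC/basal mean. *Notch2* at 227 CPM was within the LP range and gave 72.4% of receptor RPKM. *Jag1* and *Jag2* measured 56.8 and 52.9 CPM and *Dll1* 13.5 CPM, log2 ratios of -2.56, -2.44 and -5.05 to the MaSC/basal mean. By the same criterion 7 of 10 genes differed by over 2-fold, against 41.7% of all genes, *Notch2* upward (16.9%) and 6 downward (24.8%), and 8 without TMM scaling, with *Hes1* at 1.22. Beside the low *Notch4* value, the pericyte markers summed to 343 CPM, against 37.3 to 54.3 CPM in MaSC/basal. *Pdgfrb* was at 341 CPM, and every other gene of that list was below the MaSC/basal libraries. Basal markers summed to 1532 CPM against 16026 to 22302 in MaSC/basal, luminal markers to 123 against 817 to 998 and fibroblast markers to 2649 against 481 to 707. Of the fibroblast list *Col1a1* (808 CPM), *Col3a1* (1624) and *Pdgfra* (124) were above every MaSC/basal library, while *Dcn* (91.4) and *Lum* (0.680) were below. *Krt8*, *Krt18*, *Krt19* and *Cdh1* were below all sorted libraries, and the part of this marker pattern in the members' values was not tested. *Hes1* at 93.4 CPM lay between the MaSC/basal and the LP and ML means. The targets *Hes1* and *Hey1* had log2 ratios of opposite sign to the MaSC/basal mean, 0.93 and -0.87, and neither has a replicate check.

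**Figure D5:**
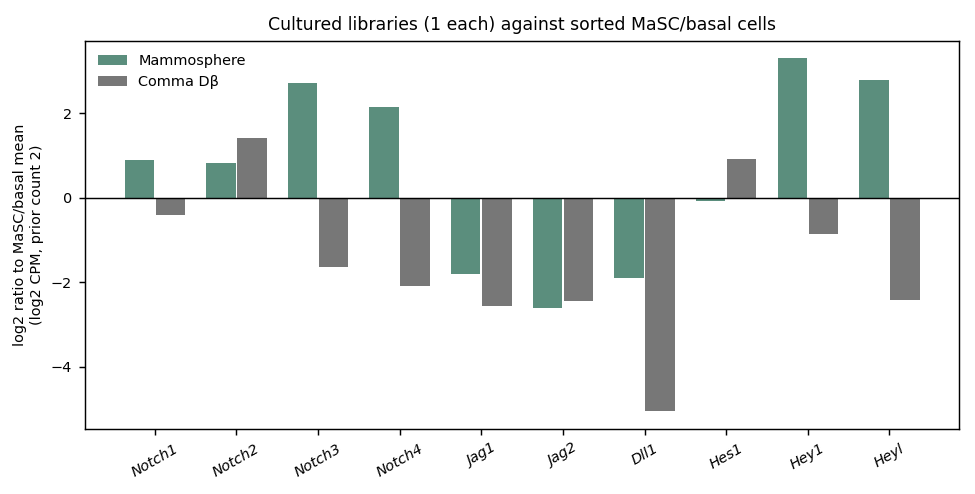
Log2 ratio of the mammosphere and the Comma Dβ library to the MaSC/basal mean (log2 CPM with a prior count of 2) for the 10 genes, 1 library per bar and no error bars. The 3 ligands are below 0 in both libraries, while *Notch3*, *Notch4*, *Hey1* and *Heyl* are above 0 in mammospheres and below 0 in Comma Dβ.

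The genes most like each member over the 11 libraries were found by Pearson's r of log2 CPM, given as a description because libraries of a population are alike. For ligands these were *Ikbke* (r 0.991), *Il20ra* and *Nlgn2* for *Jag1*, *Cdh3* (0.991), *Fat2* and *Lmo1* for *Jag2*, and *Lgr4* (0.991), *Tns1* and *Rragd* for *Dll1*. For receptors they were *Ubap1* (0.963), *Eif2a* and *Epb41l4aos* for *Notch1*, *Sfxn5* (0.975), *Asic1* and *Cdk6* for *Notch2*, *Mansc1* (0.994), *Cldn4* and *Bik* for *Notch3*, and *Lrat* (0.986), *Ablim3* and *Clca2* for *Notch4*. For targets they were *Mir23a* (0.957), *Rac1* and *Camta2* for *Hes1*, *Cd81* (0.986), *Ogfrl1* and *Hebp1* for *Hey1*, and *Kcnq1* (0.970), *Sptb* and *Gng7* for *Heyl*. No member was among the 3 genes most like another member.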

How the data were processed

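RNA-seq libraries were sequenced as single-end reads. The authors used Rsubread (mm10) and featureCounts (Entrez genes) and deposited 1 table of raw counts per library, with each gene's exon length and no filter or normalization. The submitters' processing notes also list CASAVA 1.8.0, edgeR 3.6.2 and limma 3.20.5. How multi-mapping reads were treated is not given in the sources used here, but no stretch of 100 bases, the read length, is shared between transcripts of different members. *Notch1*, *Notch2* and *Notch3* share 9.76%, 5.02% and 6.03% of exon bases with other genes, and strand was not recorded.

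From these counts, edgeR 4.0.16 (R 4.3.3) kept genes over 0.5 CPM in at least 3 libraries, computed TMM factors and fitted a quasi-likelihood model of 5 sample type means to all 11 libraries. FDR is the Benjamini-Hochberg value over 15422 genes, and SE is the log2 fold change divided by the root of F. RPKM is TMM-scaled CPM per kilobase of deposited exon length. Symbols were matched by Entrez ID in a RefSeq table, which held the 10 members, all 55 pathway genes and all 43 markers. Sequences are from RefSeq (GRCm38.p6). The members and lists were chosen with earlier results of these data known. Pathway genes were named where they passed in MaSC/basal against luminal or LP against ML with a mean of at least 1 CPM, at most 4 per list by size. Ligands and HES or HEY genes over 0.5 CPM in any library were named too. *Dll3* and *Numb* were added after their values were seen. The 3 most similar genes were named per member.

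Samples were grouped by their labels, and the batch in the labels, with its own kit version in batch 1, is the replicate block. Deviations from group means correlated at -0.118 to 0.526 between libraries of different populations in the same batch, and at -0.419 to 0.114 across batches. The LP and ML pairs of batches 1, 2 and 3 were at 0.32, 0.313 and 0.526. The main fit left the block out. The alternatives were DESeq2 size factors, no TMM, limma voom (limma 3.58.1), DESeq2 1.42.0, other filters, the 9 sorted libraries alone, the block, and leaving out each sorted library. The fit was tested on simulated counts. Depth speaks to counting error only, as the reads carried no molecular identifiers.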

Additional observations from a re-analysis of the deposited data

How the results depend on the processing

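The counts of members called (10, 9, 5 and 10 for MaSC/basal against LP, against ML, LP against ML and MaSC/basal against luminal) stayed within 1.5 times of themselves under every alternative of normalization, test, filter and samples. With library batch as a replicate block they were 10, 9, 6 and 10, and the block changed the calls of *Notch1* and *Hey1* against ML and of *Heyl* between LP and ML given above and no other call of a member. Leaving out 1 sorted library gave 10 to 10, 6 to 9, 5 to 6 and 10 to 10. The 6 against ML came from leaving out MaSC/basal replicate 3 or ML replicate 1. The number of pathway genes called between LP and ML ranged from 10 to 20 with 1 library left out, against 17. With the replicate block it was 22, where 5638 of all 15422 genes were called in place of 4899. Uncalled differences that turned sign were those of *Hes1* between LP and ML (0.09, against -0.070 without TMM scaling, -0.059 with limma voom, -0.044 with the replicate block and -0.13 to 0.46 with 1 library left out) and of *Jag2* between LP and ML (-0.80 to 0.12 with 1 library left out, positive without ML replicate 3). The mammosphere ratio of *Hes1* (-0.09) became 0.13 without TMM scaling and ranged from -0.32 to 0.24 with 1 MaSC/basal library left out, positive without replicate 2. The cause of these changes was not tested, beyond the fewer libraries of the left-out fits. Depth limits the lowest values most: *Notch4* had 27 to 198 reads per sorted library and *Jag2* 63 to 317 reads per luminal library.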
